A study of Homo sapiens with 9 samples.

Results

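The genes described here encode enzymes that make or use arginine, proline and the polyamines in HepG2 cells, a widely used cell line from a human liver tumor. They were chosen by name as rows of the deposited table: CPS1, ASS1, ASL and ARG2 of the urea cycle and arginine metabolism, ALDH18A1, PYCR1 and PRODH of proline metabolism, and ODC1 and SAT1 of polyamine metabolism. All 9 were found among the 22587 genes of the table, and 8 of them were abundant enough to be tested. RNA-seq was available for 3 libraries from cells with Gln added, 3 from cells deprived of Gln for 12 h and 3 from cells deprived for 24 h, all of them otherwise untreated HepG2 cells in high glucose DMEM. GlutaMAX, a dipeptide that cells use as Gln, is given in the sample labels as the treatment of the libraries with Gln added, whereas the treatment protocol and the methods assign it to the Gln-deficient medium, and the group that the labels call normal medium is named here Gln added. The labels do not say that the libraries of a group came from separate cultures, so the p-values measure the spread between these libraries, which may be technical. They name no time for the group with Gln added and no separate control for 12 h or 24 h. Time in culture therefore cannot be told apart from the length of Gln deprivation.

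Levels are given as FPKM, the fragments of a gene per kilobase of its length, scaled to the depth of the library. They are compared here between genes and between libraries, although their sum differed between libraries, from 371462 to 387589 FPKM. Rescaling to an equal total was therefore among the alternatives. Each library held between 29621270 and 36261546 fragments on genes, and the median coefficient of variation between replicates of genes over 10 FPKM in these groups was 2.84%, 4.02% and 4.39%, in the order above. Differences between groups are log2 differences on the scale of log2(FPKM + 0.1), tested with limma across 11880 genes with Benjamini-Hochberg adjustment, and a gene was called at an adjusted p under 0.05. All 10 hepatocyte and HepG2 marker genes were above 1 FPKM in each group. Their summed level was 7563 to 7663 FPKM with Gln added, 6627 to 6698 FPKM at 12 h and 6401 to 6734 FPKM at 24 h. Markers of fibroblasts and endothelial cells summed to less than 1 FPKM in every library. Of the leukocyte markers only CD14 and CD68 are genes of the table, with a summed level between 37.4 and 37.7 FPKM with Gln added and between 22.2 and 26.9 FPKM at 24 h, and PTPRC, CD3E and MS4A1 are not listed. Of the cholangiocyte markers, KRT7 and CFTR were below 1 FPKM in each group. SPP1 was high, with a mean of 567 FPKM with Gln added, 584 FPKM at 12 h and 640 FPKM at 24 h.

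The 3 pathways share glutamate and ornithine as branch points. Glutamate, which cells form from Gln, is turned by ALDH18A1 into the semialdehyde from which proline and ornithine are made. In the liver the urea cycle uses ornithine as a carrier and forms arginine as an intermediate, which arginase splits into urea and ornithine. Ornithine decarboxylase draws on the same ornithine to make putrescine, the first of the polyamines, small cations that bind nucleic acids and are needed for growth.

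Promoters are shown for 3 members that were called at both times against Gln added, because these genes moved in opposite directions in the same libraries. RefSeq sequences for GRCh38.p14, from 250 bases before to 50 bases after a start site, were matched for 7 of the 9 members, and PYCR1 and PRODH were not matched. Capitals mark CACGTG (an E-box) and ATTGC, which is GCAAT read on the opposite strand. ALDH18A1, which fell, is on the minus strand of chr10:95656662-95656961. ASS1, which rose, is on the plus strand of chr9:130444711-130445010, at the start site that coincides with the start of the gene in GENCODE v44. SAT1, which rose as well, is on the plus strand of chrX:23782923-23783222.
ALDH18A1: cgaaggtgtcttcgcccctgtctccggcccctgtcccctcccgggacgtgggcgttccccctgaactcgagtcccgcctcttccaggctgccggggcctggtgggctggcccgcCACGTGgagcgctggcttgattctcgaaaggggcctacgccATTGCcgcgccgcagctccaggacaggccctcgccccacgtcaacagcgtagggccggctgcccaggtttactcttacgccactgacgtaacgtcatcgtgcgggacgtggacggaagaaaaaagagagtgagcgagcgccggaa
ASS1: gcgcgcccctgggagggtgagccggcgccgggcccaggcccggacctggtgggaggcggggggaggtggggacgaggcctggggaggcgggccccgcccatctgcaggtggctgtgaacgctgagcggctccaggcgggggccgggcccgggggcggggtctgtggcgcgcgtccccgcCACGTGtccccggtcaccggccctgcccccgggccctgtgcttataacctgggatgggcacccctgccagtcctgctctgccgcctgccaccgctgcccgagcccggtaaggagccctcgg
SAT1: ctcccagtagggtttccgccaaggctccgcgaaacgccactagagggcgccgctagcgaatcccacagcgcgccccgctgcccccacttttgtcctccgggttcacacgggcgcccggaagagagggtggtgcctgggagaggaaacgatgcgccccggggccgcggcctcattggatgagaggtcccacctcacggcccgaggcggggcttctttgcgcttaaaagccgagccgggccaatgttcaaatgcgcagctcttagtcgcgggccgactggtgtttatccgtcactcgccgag
On both strands, the sequences were searched for TGATGCAA, the composite element of ATF4 with C/EBP factors, and for TGATG, with which it begins. They were also searched for GCAAT, which is not contained whole in TGATGCAA, and for CACGTG. The ALDH18A1 window held CACGTG at -136 to -131 and GCAAT at -95 to -91 from the start site. The ASS1 window held CACGTG at -71 to -66, and in the SAT1 window none of the 4 motifs was found. Over all 35116 promoters of the table, 7.26% held CACGTG, 24.5% held GCAAT, 32.9% held TGATG and 0.866% held TGATGCAA. For ASS1 another start site and for CPS1 3 start sites are listed in the table, and the data do not tell which of them were in use.

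With Gln added, ODC1 had the highest level of the members (182 ± 3.61 FPKM, SD, n = 3), above the levels of 97.9% of the genes tested. PYCR1 (96.3 ± 2.09 FPKM), ALDH18A1 (85.3 ± 1.48 FPKM), SAT1 (67.5 ± 2.98 FPKM) and ASS1 (56.9 ± 0.793 FPKM) followed. ASL (19.8 ± 0.407 FPKM), ARG2 (9.29 ± 0.622 FPKM) and CPS1 (8.24 ± 0.318 FPKM) were lower, and PRODH was close to 0 (0.147 ± 0.0408 FPKM). No 2 neighbors in this order overlapped in their libraries, in any of the 3 groups. At 12 h and at 24 h the order was the same except that ALDH18A1 moved from the third place to the fifth, below SAT1 and ASS1.

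**Figure D1:**
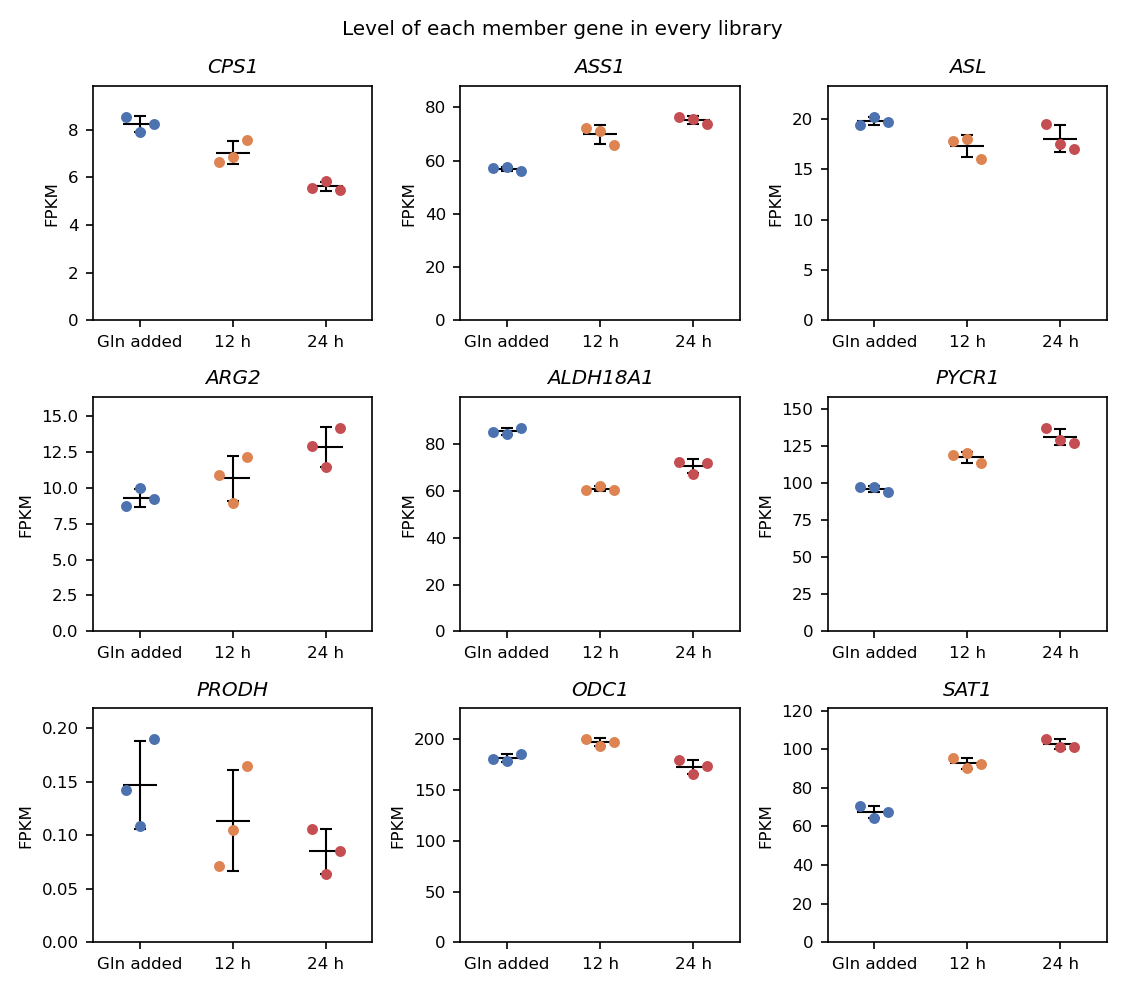
Level in FPKM (vertical axes, from 0, a separate scale for each gene) of the 9 genes in each of the 9 libraries, by group on the horizontal axes; points are libraries, and bars give the mean and the SD (n = 3). SAT1, PYCR1 and ASS1 are higher in all 6 Gln-deprived libraries than in the 3 with Gln added, whereas CPS1 and ALDH18A1 are lower in all 6.

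To define how the members responded to Gln deprivation, each Gln-deprived group was compared with the libraries with Gln added. At 12 h, 7 of the 8 members tested were called, where 60.2% of all genes tested were called. ASS1, PYCR1, ODC1 and SAT1 rose (29.1% of all genes did), and CPS1, ASL and ALDH18A1 fell (31.0% of all genes did). At 24 h, 6 of 8 were called, against a background of 64.7%. ASS1, ARG2, PYCR1 and SAT1 were higher (33.0% of all genes were), and CPS1 and ALDH18A1 were lower (31.7% of all genes were). The libraries of the groups did not overlap for 7 of 8 members at 12 h and for 6 of 8 at 24 h, beside 67.2% and 69.9% of all genes tested. Most of the genes tested were called, so these counts alone do not set the members apart, and both comparisons share the libraries with Gln added. The median log2 difference of the members tested was 0.15 at 12 h and 0.17 at 24 h, and that of all genes tested -0.02 and 0.01. The members' differences were moderate in size. The largest was that of SAT1 at 24 h, a rise of 52.0%, and the size of its log2 difference was above that of 81.3% of the genes tested.

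**Figure D2:**
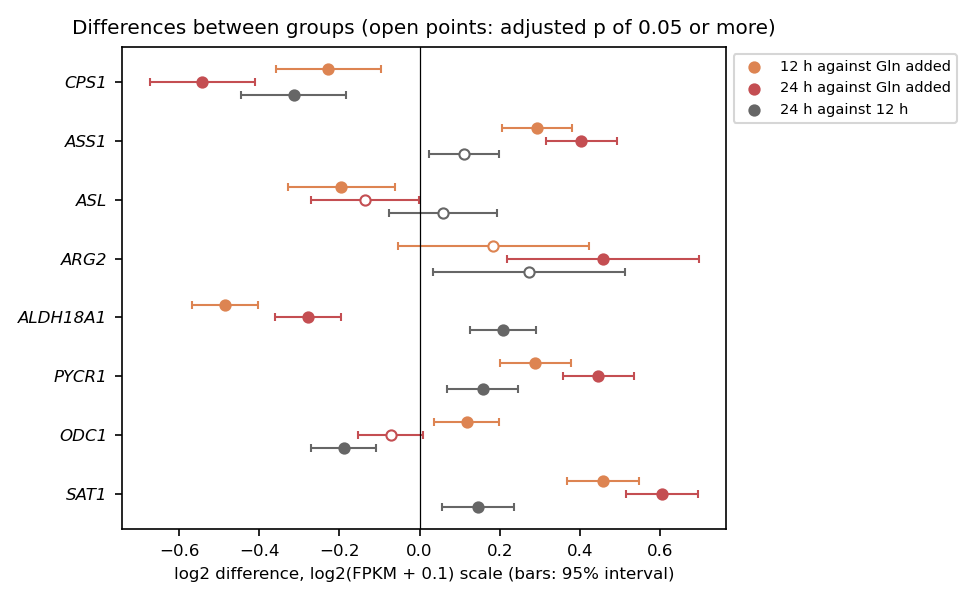
Log2 difference between groups on the log2(FPKM + 0.1) scale (horizontal axis) for the 8 members tested (vertical axis), with 95% intervals from limma; filled points have an adjusted p under 0.05, and colors give the comparison. CPS1 and ALDH18A1 lie to the left of 0 and ASS1, PYCR1 and SAT1 to the right of it at both times, and ODC1 is on opposite sides of 0 at 12 h and 24 h, where only the value at 12 h is filled.

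CPS1 encodes carbamoyl-phosphate synthetase 1, the mitochondrial enzyme that brings ammonia into the urea cycle (chromosome 2, 210477682 to 210679107, plus strand, GENCODE v44 on GRCh38). Its level was 8.55, 7.91 and 8.25 FPKM in the libraries with Gln added, 6.66, 6.84 and 7.57 FPKM at 12 h, and 5.57, 5.84 and 5.46 FPKM at 24 h. The 3 groups did not overlap, and each library at 24 h was below each library at 12 h. CPS1 had a log2 difference of -0.23 at 12 h (SE 0.059, limma adjusted p = 0.00663) and of -0.54 at 24 h (SE 0.059, limma adjusted p = 1.50e-05), so that its level had dropped by 31.7% at 24 h.

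ASS1 encodes argininosuccinate synthase, which joins citrulline and aspartate and is rate-limiting for arginine synthesis outside the liver's urea cycle (chromosome 9, 130444961 to 130501274, plus strand). Levels were 57.3, 57.4 and 56.0 FPKM with Gln added, 72.4, 71.2 and 65.9 FPKM at 12 h, and 76.5, 75.7 and 73.7 FPKM at 24 h. The libraries with Gln added lay closely together and below all others. The log2 difference of ASS1 was 0.29 at 12 h (SE 0.040, limma adjusted p = 9.93e-05) and 0.40 at 24 h (limma adjusted p = 6.90e-06). GENCODE v44 lists 14 pseudogenes named after ASS1, none of them in the table, so fragments shared with such copies make its level uncertain.

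ASL encodes argininosuccinate lyase, which releases arginine and fumarate in the next step (chromosome 7, 66075800 to 66094697, plus strand). With Gln added it was at 19.4, 20.2 and 19.7 FPKM, at 12 h at 17.84, 17.97 and 16.03 FPKM, and at 24 h at 19.5, 17.5 and 17.0 FPKM. At 24 h one library lay within the range of those with Gln added and the other 2 below it. The fall at 12 h was small, with a log2 difference of -0.20 (SE 0.061, limma adjusted p = 0.0167), and at 24 h the value of -0.14 was not called (95% interval -0.27 to -0.003, limma adjusted p = 0.0687). The call at 12 h was lost without replicate 2 with Gln added (limma adjusted p = 0.0560) and without replicate 3 at 12 h (adjusted p = 0.0611). The value at 24 h was called without replicate 1 at 24 h (adjusted p = 0.009999) and without replicate 3 at 12 h (adjusted p = 0.0425). A same-strand neighbor shares 9.34% of the exonic bases of ASL, and 1 pseudogene is named after it.

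ARG2 encodes the mitochondrial arginase, which splits arginine into urea and ornithine and is the arginase of many tissues other than liver (chromosome 14, 67619920 to 67651708, plus strand). The libraries with Gln added had 8.71, 9.94 and 9.22 FPKM, those at 12 h 10.9, 8.95 and 12.1 FPKM, and those at 24 h 12.9, 11.4 and 14.2 FPKM. The spread at 12 h was wide, with replicate 2 inside the range of the libraries with Gln added, whereas the 24 h libraries were all above that range. ARG2 was higher at 24 h by 0.46 on the log2 scale (SE 0.11, limma adjusted p = 0.00338), and the value at 12 h was 0.18 (95% interval -0.05 to 0.42, limma adjusted p = 0.163), which became a call without replicate 2 at 12 h (log2 difference 0.30, adjusted p = 0.0215). VTI1B, on the opposite strand, overlaps 39.6% of the exonic bases of ARG2, and it is not stated whether strand was used in counting. VTI1B fell, from 20.2 FPKM with Gln added to 18.2 FPKM at 12 h (limma adjusted p = 0.00729) and 17.3 FPKM at 24 h (limma adjusted p = 0.000600), and its part in the level of ARG2 was not tested.

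ALDH18A1 encodes the enzyme P5CS, which commits glutamate to the synthesis of proline and ornithine (chromosome 10, 95605941 to 95656711, minus strand). Its level was 85.0, 84.0 and 86.9 FPKM with Gln added, 60.5, 62.0 and 60.3 FPKM at 12 h, and 72.22, 66.98 and 71.98 FPKM at 24 h. Every library at 24 h lay between the libraries with Gln added and those at 12 h. ALDH18A1 had the largest difference of the members at 12 h, a log2 difference of -0.48 (SE 0.037, limma adjusted p = 1.46e-06), and at 24 h the difference was -0.28 (limma adjusted p = 7.01e-05). No other gene's exons overlap those of ALDH18A1, whose promoter is printed above.

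PYCR1 encodes a mitochondrial pyrroline-5-carboxylate reductase, which carries out the last step of proline synthesis (chromosome 17, 81932384 to 81942412, minus strand). Libraries with Gln added had 97.4, 97.6 and 93.9 FPKM, those at 12 h 119, 121 and 114 FPKM, and those at 24 h 138, 129 and 127 FPKM. The 3 groups were separate and in the order of time. PYCR1 rose by 0.29 on the log2 scale at 12 h (SE 0.040, limma adjusted p = 0.000111) and by 0.45 at 24 h (limma adjusted p = 3.16e-06). The enzymes before and after the shared semialdehyde, ALDH18A1 and PYCR1, thus had differences of opposite sign at both times. MYADML2, on the same strand, overlaps 14.1% of the exonic bases of PYCR1 and was below 0.03 FPKM in every library. Genes of the opposite strand overlap 15.6%.

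PRODH encodes proline dehydrogenase, the first enzyme of proline breakdown (chromosome 22, 18912777 to 18936553, minus strand). It was at 0.142, 0.109 and 0.190 FPKM with Gln added, at 0.0713, 0.105 and 0.164 FPKM at 12 h, and at 0.106, 0.0635 and 0.0848 FPKM at 24 h. These levels rest on 5 to 16 fragments per library, and PRODH was the only member under the mean of 0.5 FPKM required for the test. Exact permutation tests (two-sided, 3 against 3 libraries) gave p = 0.4 at 12 h and p = 0.1 at 24 h, the smallest p such a test allows (adjusted over 27 member comparisons, 0.432 and 0.135). Each member comparison that limma called also had an exact permutation p of 0.1, and 0.135 after adjustment. With no filter on low values, the adjusted p of PRODH from limma was 0.464 at 12 h and 0.143 at 24 h. No difference of PRODH was thus detectable at this depth. Opposite-strand genes overlap 9.39% of the exonic bases of PRODH.

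ODC1 encodes ornithine decarboxylase, the rate-limiting enzyme of polyamine synthesis (chromosome 2, 10439968 to 10448327, minus strand). It had 180, 179 and 186 FPKM with Gln added, 201, 193 and 198 FPKM at 12 h, and 179, 165 and 174 FPKM at 24 h. The 12 h libraries were the highest of all 9, whereas those at 24 h and with Gln added overlapped. The rise at 12 h was 8.51% in mean level, a log2 difference of 0.12 (SE 0.037, limma adjusted p = 0.0173), and the value at 24 h was -0.07 (95% interval -0.15 to 0.01, limma adjusted p = 0.109). Without replicate 1 or 2 with Gln added, or without replicate 1 at 12 h, the difference at 12 h was not called (limma adjusted p = 0.0578, 0.0615 and 0.0642). Without replicate 1 at 24 h, ODC1 was called lower at 24 h (log2 difference -0.10, adjusted p = 0.0349).

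SAT1 encodes spermidine/spermine N1-acetyltransferase, the rate-limiting enzyme of polyamine breakdown and export (chromosome X, 23783173 to 23786210, plus strand). Levels were 70.4, 64.4 and 67.6 FPKM with Gln added, 95.4, 90.1 and 92.5 FPKM at 12 h, and 105, 101 and 101 FPKM at 24 h. All 6 Gln-deprived libraries were above those with Gln added, and the 24 h libraries were above the 12 h ones. SAT1 had a log2 difference of 0.46 at 12 h (SE 0.041, limma adjusted p = 4.21e-06) and of 0.60 at 24 h (limma adjusted p = 3.55e-07). A same-strand neighbor shares 3.63% of its exonic bases.

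Between 12 h and 24 h, 5 of the 8 members tested were called, where 20.1% of all genes tested were, and the median log2 difference of the members was 0.13 against 0.02 for all genes. ALDH18A1, PYCR1 and SAT1 were higher at 24 h than at 12 h (9.57% of all genes were), and CPS1 and ODC1 were lower (10.5% of all genes were). The libraries did not overlap for 6 of 8 members, beside 34.4% of all genes. CPS1 dropped by 0.31 on the log2 scale (SE 0.059, limma adjusted p = 0.00438) and ODC1 by 0.19 (SE 0.037, limma adjusted p = 0.00516). ALDH18A1 regained part of its level, with a log2 difference of 0.21 (SE 0.037, limma adjusted p = 0.00336). PYCR1 rose further by 0.16 on the log2 scale (limma adjusted p = 0.0190), a call lost without replicate 3 at 12 h (adjusted p = 0.0542). SAT1 rose further by 0.15 (limma adjusted p = 0.0284), and this call was lost without replicate 2 or 3 at 12 h or replicate 1 or 3 at 24 h, with adjusted p from 0.0567 to 0.101. ASS1, with a log2 difference of 0.11 (95% interval 0.02 to 0.20, limma adjusted p = 0.0767), ARG2 (0.27, 95% interval 0.03 to 0.51, adjusted p = 0.101) and ASL (0.06, 95% interval -0.08 to 0.19, adjusted p = 0.539) were not called, although ARG2 was without replicate 3 at 12 h (adjusted p = 0.0368).

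The members were next placed among the other genes of their pathways. The lists of urea cycle and arginine genes (22), proline and ornithine genes (12) and polyamine genes (27) hold 60 genes together with the members, since AZIN2 is in 2 of them, and 52 were tested. At 12 h 15 of the 52 were higher and 21 lower, at 24 h 14 were higher and 22 lower, and between 12 h and 24 h 5 were higher and 9 lower. The shares called were 69.2% at each time against Gln added, where 60.2% and 64.7% of all genes tested were called, and 26.9% between the times, where 20.1% were. The median log2 difference of the 52 genes was -0.10 at 12 h and -0.13 at 24 h. Without the members, 44 genes of the lists were tested. Of these, 65.9% were called at 12 h, 68.2% at 24 h and 20.5% between the times, the last close to the 20.1% of all genes. NOS1, NOS2, AZIN2, GATM, SLC25A2, SLC7A3, PRODH and P4HA3 did not pass the filter on low values.

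**Figure D3:**
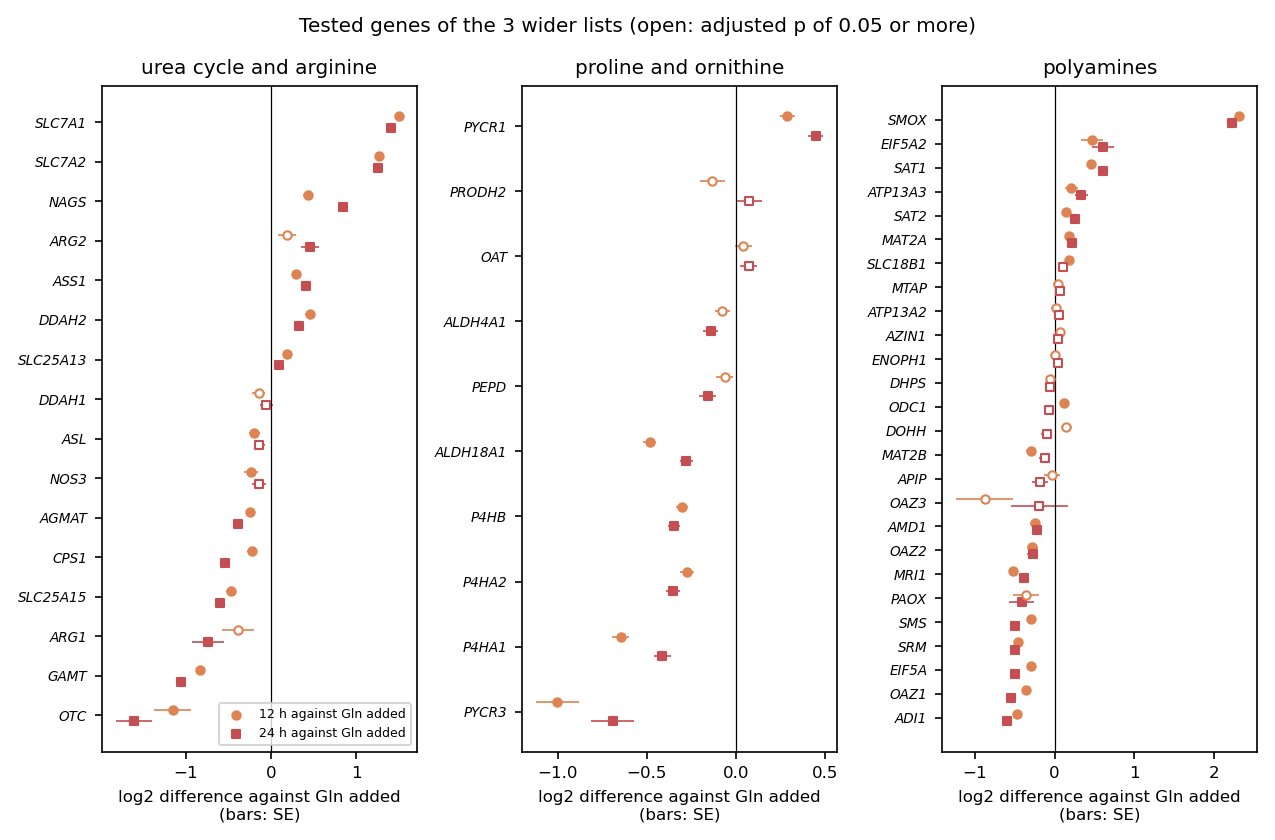
Log2 difference against Gln added (horizontal axes, log2(FPKM + 0.1) scale, bars give the SE) for each tested gene of the 3 lists (vertical axes, ordered by the value at 24 h); circles are 12 h, squares 24 h, and filled symbols have an adjusted p under 0.05. SMOX, SLC7A1 and SLC7A2 lie farthest to the right, with log2 differences above 1 at both times, and OTC farthest to the left.

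Of the 16 tested urea cycle and arginine genes, 6 were higher and 7 lower at 12 h, and 7 were higher and 6 lower at 24 h, that is, 81.25% called at each time. Of all genes tested, 29.1% were higher and 31.0% lower at 12 h (60.2% called), and 33.0% were higher and 31.7% lower at 24 h (64.7% called). SLC7A1, a cationic amino acid transporter that takes up arginine, ornithine and lysine, went from 16.9, 17.3 and 17.7 FPKM with Gln added to between 47.2 and 51.1 FPKM at 12 h and between 45.8 and 46.2 FPKM at 24 h. Its log2 difference was 1.502 at 12 h (SE 0.038, limma adjusted p = 4.18e-10) and 1.40 at 24 h. SLC7A2, the related transporter of hepatocytes, rose by 1.26 and 1.25 on the log2 scale, from between 12.4 and 12.9 FPKM to between 29.2 and 31.3 FPKM in the Gln-deprived libraries. The differences of these transporters were larger in size than that of any of the 8 members tested.

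At the entry of the urea cycle, NAGS and CPS1 differed in opposite directions. NAGS makes N-acetylglutamate, the activator that CPS1 requires, and rose from 4.67 ± 0.0776 FPKM with Gln added to 6.34 ± 0.405 FPKM at 12 h and 8.45 ± 0.0528 FPKM at 24 h (SD, n = 3; log2 difference 0.43 and 0.84, limma adjusted p = 5.18e-05 and 2.35e-07). OTC, ornithine transcarbamylase, which follows CPS1 in the mitochondrion, was low throughout and fell from 1.14 ± 0.122 FPKM to 0.456 ± 0.0432 FPKM at 12 h and 0.318 ± 0.111 FPKM at 24 h. Its values rest on 11 to 76 fragments per library. The log2 difference of OTC was -1.60 at 24 h (SE 0.21, limma adjusted p = 6.38e-05), and -0.70 with a pseudocount of 1 FPKM. SLC25A15, the mitochondrial ornithine carrier, fell by 0.47 at 12 h and by 0.60 at 24 h on the log2 scale.

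Among the enzymes that act on arginine or related compounds, ARG1, the cytosolic arginase of the liver, was at 0.981 ± 0.194 FPKM with Gln added and 0.545 ± 0.0957 FPKM at 24 h (log2 difference -0.74, limma adjusted p = 0.00551). Its values rest on 25 to 60 fragments per library, and the log2 difference was -0.36 with a pseudocount of 1 FPKM. ARG1 and ARG2 thus had called differences of opposite sign at 24 h. GAMT, which completes creatine synthesis from guanidinoacetate, dropped by 0.84 at 12 h and by 1.05 at 24 h on the log2 scale. AGMAT, annotated as an agmatinase, had the highest level of this list (126 ± 3.96 FPKM with Gln added) and fell by 0.24 and 0.39. DDAH2, of the family that breaks down methylated arginines, rose by 0.46 and 0.33.

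Of the 10 tested proline and ornithine genes counted here, 1 was higher (PYCR1) and 5 lower at 12 h, and 1 was higher (PYCR1) and 7 lower at 24 h. The share called was 60.0% at 12 h, beside 60.2% of all genes tested, and 80.0% at 24 h, beside 64.7%. PYCR3, the cytosolic reductase, fell from 2.42 ± 0.143 FPKM to 1.16 ± 0.172 FPKM and 1.46 ± 0.156 FPKM, a log2 difference of -1.001 at 12 h and -0.69 at 24 h, which was -0.66 and -0.47 with a pseudocount of 1 FPKM. P4HA1, a catalytic subunit of collagen prolyl 4-hydroxylase, dropped by 0.65 at 12 h and by 0.41 at 24 h on the log2 scale, and P4HA2 and P4HB were lower too, with log2 differences from -0.27 to -0.35.

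Of the genes that break down or interconvert proline and ornithine, OAT, ornithine aminotransferase, was at 30.0 ± 0.570 FPKM with Gln added, 30.9 ± 1.47 FPKM at 12 h and 31.5 ± 1.52 FPKM at 24 h and was not called (95% interval of the log2 difference at 24 h -0.03 to 0.18). PRODH2, which oxidizes hydroxyproline, was at 17.8 ± 0.629 FPKM with Gln added, over 100 times the level of PRODH, and was not called at either time. ALDH4A1, which oxidizes the semialdehyde back to glutamate, was called lower at 24 h (log2 difference -0.14, limma adjusted p = 0.00998) and had a value of -0.08 at 12 h (adjusted p = 0.130).

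Of the 26 tested polyamine genes, 8 were higher and 9 lower at 12 h, and 6 were higher and 9 lower at 24 h. The share called was 65.4% at 12 h, beside 60.2% of all genes tested, and 57.7% at 24 h, beside 64.7%. SMOX, spermine oxidase, which turns spermine back into spermidine, had the largest difference of all 3 lists. Its levels were 12.1, 12.4 and 13.7 FPKM with Gln added, between 61.7 and 64.8 FPKM at 12 h and between 57.7 and 61.1 FPKM at 24 h. The mean level was 4.98 times as high at 12 h and 4.71 times as high at 24 h (log2 difference 2.31 and 2.23, SE 0.050, limma adjusted p = 1.56e-10 and 1.67e-10). SAT2, a second acetyltransferase named after SAT1, rose by 0.14 and 0.25 on the log2 scale (limma adjusted p = 0.0220 and 0.000712). The call of SAT2 at 12 h was lost without replicate 1 or 3 with Gln added or replicate 1 or 2 at 12 h (adjusted p from 0.0590 to 0.0754). PAOX, the oxidase that acts on acetylated polyamines, was lower at 24 h, with a log2 difference of -0.41 (limma adjusted p = 0.0428). This call was lost under 10 of 19 alternatives (adjusted p from 0.0539 to 0.140): without any replicate with Gln added, replicate 3 at 12 h, or replicate 2 or 3 at 24 h, with the replicate block (adjusted p = 0.0559), with FPKM rescaled, with no filter and with voom on recovered fragments. A gene on the same strand, ENSG00000254536, covers 61.0% of the exonic bases of PAOX, so the fragments of these genes may not be separable.

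AMD1, SRM and SMS, which lengthen the polyamine chain after ODC1, fell at both times. AMD1, which supplies decarboxylated S-adenosylmethionine, dropped by 0.25 at 12 h (limma adjusted p = 0.00442) and by 0.22 at 24 h (limma adjusted p = 0.00788). SRM, spermidine synthase, went from 113 ± 2.71 FPKM to 81.9 ± 6.34 FPKM at 12 h and 79.8 ± 2.74 FPKM at 24 h, a log2 difference of -0.46 and -0.50. SMS, spermine synthase, dropped by 0.29 at 12 h and by 0.49 at 24 h on the log2 scale. Among the regulators of ODC1, the antizyme OAZ1, which targets the protein for degradation, had the highest level of the polyamine genes (407 ± 0.502 FPKM with Gln added) and dropped by 0.36 at 12 h and by 0.55 at 24 h, and OAZ2 was lower by a log2 difference of -0.28 at both times. AZIN1, an inhibitor of the antizymes, was not called (log2 difference 0.07 and 0.04, adjusted p = 0.180 and 0.470).

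Downstream, EIF5A, the translation factor that carries the spermidine-derived residue hypusine, fell from 135 ± 2.94 FPKM to 110 ± 5.20 FPKM at 12 h and 95.8 ± 5.23 FPKM at 24 h, whereas its less abundant paralog EIF5A2 was higher by 0.47 and 0.61 on the log2 scale. DHPS and DOHH, which form hypusine, were not called at either time against Gln added. A gene on the same strand, ENSG00000285589, covers 38.8% of the exonic bases of DHPS. The log2 difference of DOHH was 0.14 at 12 h (limma adjusted p = 0.0937) and -0.10 at 24 h (limma adjusted p = 0.226), and at 12 h its libraries did not overlap those with Gln added. DOHH was called at 12 h with the replicate block (adjusted p = 0.0473) and under 4 other alternatives, with FPKM rescaled, with the 2 groups compared alone, and without replicate 3 at 12 h or replicate 1 at 24 h (adjusted p from 0.0341 to 0.0482), and at 24 h without replicate 1 at 24 h (adjusted p = 0.0233). In the methionine salvage branch that recycles the by-product of spermidine and spermine synthesis, ADI1 dropped by 0.47 at 12 h and by 0.60 at 24 h on the log2 scale and MRI1 by 0.52 and 0.39, and MTAP, ENOPH1 and APIP were not called. The libraries of APIP at 24 h did not overlap those with Gln added (log2 difference -0.18, limma adjusted p = 0.137), and APIP was called there with the replicate block (adjusted p = 0.0288) and without replicate 2 at 12 h (adjusted p = 0.0427). MAT2A, which makes S-adenosylmethionine, rose by 0.18 and 0.22. A gene on the opposite strand, ENSG00000267633, overlaps 31.1% of the exonic bases of MRI1. GENCODE v44 lists 3 pseudogenes named after each of ADI1, SRM and EIF5A, and 5 after each of AMD1 and SLC25A15. The part of such genes in these levels was not tested.

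Since a share within a library does not depend on the scaling between libraries, the part that a member held of the summed FPKM of its paralogs was compared as well. ARG2 held 90.5% ± 1.16 of the sum of ARG1 and ARG2 with Gln added (SD, n = 3), then 93.6% ± 1.36 at 12 h and 95.9% ± 1.11 at 24 h. SAT1 held 57.3% ± 1.67 of the sum of SAT1 and SAT2, then 62.5% ± 0.977 and 63.1% ± 1.51. For ARG2 and SAT1, both Gln-deprived groups were separate from the group with Gln added but overlapped each other. Two-sided exact permutation tests gave p = 0.1 for each pair of groups that did not overlap, the smallest p that 3 libraries against 3 allow, and 0.15 after adjustment over the 6 comparisons.

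**Figure D4:**
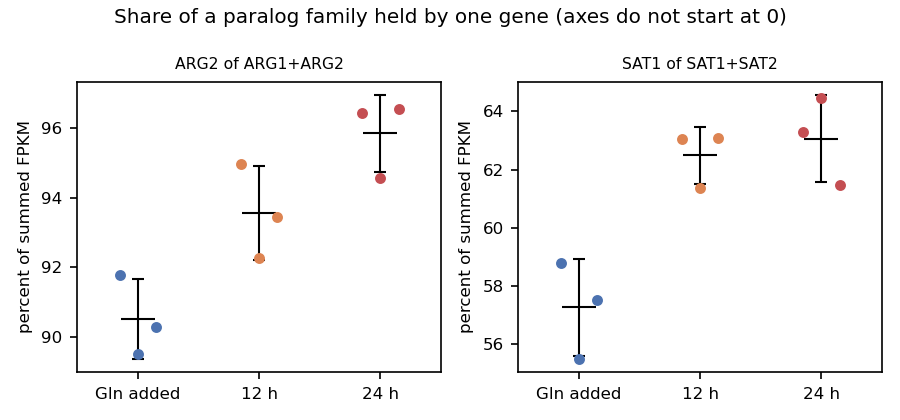
Percent of the summed FPKM of a paralog family held by ARG2 or SAT1 (vertical axes, which do not start at 0) in each library by group (horizontal axes); points are libraries, and bars give the mean and the SD (n = 3). The shares of ARG2 and SAT1 are higher at 12 h and at 24 h than with Gln added.

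Genes with the most similar course over the 9 libraries were sought for each member by the root mean square difference of log2(FPKM + 0.1), after each gene's own mean was taken off, among 7296 genes averaging 5 FPKM or more. ASS1 and PYCR1 shared the nearest gene, BAG6 (root mean square difference 0.024 and 0.019). For SAT1 the nearest genes were SCRN1 (0.030) and TM4SF1 (0.031), and for ALDH18A1 PRXL2B (0.035) and SEMA7A (0.040). ODC1 was nearest to KPNB1 (0.026) and KATNA1 (0.031), ASL to SHROOM1 (0.030) and DDX41 (0.037), and CPS1 to PLS3 (0.044) and ARL6IP1 (0.054). ARG2, of the members tested the one with the widest spread between replicates in each group, had no neighbor closer than THUMPD3-AS1 (0.092).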

How the data were processed

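HepG2 RNA-seq was analysed in 3 libraries per group, grouped by the sample labels. According to the methods, the authors aligned reads to GRCh38 with STAR and tested expression with DESeq2. The processing notes name HTSeq and R 3.2.0, without their role. The labels and the methods name different library kits, so the use of strand in counting is not known. The authors deposited FPKM per gene, and each column was matched to 1 library by the labels. The members and gene lists were chosen with earlier results of these data known.

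FPKM are not counts, so limma 3.58.1 in R 4.3.3 (lmFit, eBayes with a trend) was run on log2(FPKM + 0.1) in one fit of the 3 groups, for the 11880 genes averaging 0.5 FPKM or more, with p-values adjusted by Benjamini-Hochberg. A fold change on this scale understates that of genes near 0.1 FPKM. The steps between FPKM values gave whole fragments behind each value and the depth per library, from 29621270 to 36261546. Data were simulated with changes for 12 h and for 24 h against Gln added. Of 192 changed genes, 192 were called among 11839, with 7 and 5 false calls. The changed genes had a median log2 difference of 0.98 in size at each time. Recovery of differences as small as those of the members was not tested. The simulation changed few genes and gave all genes the same fixed spread between replicates, whereas most genes of the data were called. Its false calls therefore do not give the rate of false calls in the data. Paralog shares and all 9 members were compared by exact permutation tests (scipy 1.17.1, Python 3.11.15).

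Named genes are the 9 members, tested genes of the lists, and the nearest genes by profile, 2 per member. VTI1B and MYADML2 were named for their overlap with members, after their values were seen. A gene that the rule selects is not reported here, and the counts of the lists leave it out. Positions come from GENCODE v44 on GRCh38. Alternatives were a pseudocount of 1 or 0.01 FPKM, no filter or an average of 1 FPKM, median-ratio scaling or an equal total per library, the 2 groups compared alone, a replicate block, no trend in eBayes, limma voom on the recovered fragments, and each library left out in turn. Figures were drawn with matplotlib 3.10.9.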

Additional observations from a re-analysis of the deposited data

Results flagged for a closer look

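Genes whose level differed between 12 h and 24 h of Gln deprivation, by limma's test of that difference (adjusted p under 0.05), are given as the log2 difference of 24 h against 12 h. Neither time had a control of its own with Gln added, so length of deprivation and time in culture cannot be told apart. Of the members, CPS1 (-0.31) and ODC1 (-0.19) were lower at 24 h, and ALDH18A1 (0.21), PYCR1 (0.16) and SAT1 (0.15) were higher. Of the other urea cycle and arginine genes, NAGS was higher (0.41), and AGMAT (-0.14) and GAMT (-0.22) were lower. P4HA1, of the proline list, was higher (0.23). Of the other polyamine genes, SMS (-0.20), OAZ1 (-0.19), ADI1 (-0.13), DOHH (-0.25) and EIF5A (-0.20) were lower. Several of these calls were lost when 1 library was left out: PYCR1 without replicate 3 at 12 h (adjusted p = 0.0542), EIF5A without replicate 1 at 12 h (adjusted p = 0.0564), and SAT1 without replicate 2 or 3 at 12 h or replicate 1 or 3 at 24 h (adjusted p from 0.0567 to 0.101). AGMAT and DOHH were lost without replicate 1 or 2 at 12 h or replicate 2 or 3 at 24 h (adjusted p from 0.0644 to 0.0969 and from 0.0893 to 0.110), SMS without replicate 1 or 3 at 12 h or replicate 2 or 3 at 24 h (adjusted p from 0.0718 to 0.0954), and ADI1 without any of 7 libraries, the exceptions being replicate 1 at 12 h and replicate 1 at 24 h (adjusted p from 0.0588 to 0.112).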

How the results depend on the processing

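Over 19 alternatives, 434 of 456 values of single members kept their direction and their side of the threshold, 14 fell short of it, 8 newly passed it, and none reversed. CPS1, ALDH18A1, ASS1, PYCR1 and SAT1 were called under every alternative at 12 h and at 24 h against Gln added. The calls of ASL, ODC1 and ARG2 moved with single libraries, as given beside their values. Between 24 h and 12 h, SAT1 also missed the threshold with no filter, with median-ratio scaling and with eBayes without a trend (adjusted p = 0.0557, 0.0551 and 0.0638), and PYCR1 with the 2 groups compared alone (adjusted p = 0.0519), whereas ASS1 passed it with FPKM rescaled (adjusted p = 0.0374). AGMAT, SMS, DOHH and ADI1 missed the threshold between the times with the 2 groups compared alone and with eBayes without a trend. SMS, DOHH and ADI1 also missed it with no filter, and ADI1 with FPKM rescaled. The cause was not tested. The count of genes of the 3 lists called between 24 h and 12 h fell from 14 to 9 with the 2 groups compared alone, with eBayes without a trend and without replicate 3 at 24 h, and ranged from 9 to 15 over the libraries left out. Without 1 library, 5 to 8 members were called at 12 h, 6 to 8 at 24 h and 4 to 5 between the times. Same-numbered libraries of different groups did not deviate together (r from -0.14 to 0.28, over 0.1 in 2 of 9 pairs), so the numbers were not taken to pair them; with the replicate block, 7 members were called at 12 h, 7 at 24 h and 6 between the times, and 39, 37 and 15 genes of the lists. Against Gln added, the block added calls of ASL (adjusted p = 0.0456) and APIP (0.0288) at 24 h and of DOHH (0.0473), ARG1 (0.0475) and OAZ3 (0.0115) at 12 h, and ended that of PAOX at 24 h (0.0559); between 24 h and 12 h it added ASS1 (adjusted p = 0.0390). Depth limits PRODH, ARG1, OTC and OAZ3, with at most 76 fragments in a library.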
